A study of Homo sapiens with 4 samples.

Results

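The 2 genes described here, HOPX and VWF, were followed in LNCaP cells, an established human prostate cancer line, after transfection with 50 nM of miR-31 or of the control microRNA miR-NC for 48 h. They were chosen by the measured difference between miR-31 and miR-NC arrays, HOPX for a large rise and VWF for a large fall, so that difference is given as a description, with no test. They were read through every array probe that the platform annotation assigns to either gene alone, which gave 4 probes (3 for HOPX and 1 for VWF) among 30113 probes with 1 gene symbol, or 2 of 20046 genes. Each group had 2 Illumina bead arrays of biotin-labelled cRNA. Cells of both groups were grown in medium with 10% fetal bovine serum and were transfected, the controls with miR-NC. The arrays carry repeat numbers, and nothing says that repeats were separate cultures, so every p-value measures only the spread between these arrays, which may be technical.

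HOPX is the smallest known homeodomain protein. It does not bind DNA, and in heart cells it restrains the transcription factor SRF and recruits the histone deacetylase HDAC2. It also marks reserve stem cells of the mouse intestine and alveolar type 1 cells of the lung. VWF, von Willebrand factor, is a large secreted glycoprotein made by endothelial cells and megakaryocytes. It is stored in the Weibel-Palade bodies of endothelium, tethers platelets through GP1BA and carries coagulation factor VIII in plasma. Neither gene is a standard marker of luminal prostate cells.

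The sequences below set the scene for what the arrays read. The labels name the transfected RNA only as miR-31 and do not give its arm or sequence. RefSeq (GRCh38.p14) lists the mature 5′ arm at chr9:21512158-21512178, minus strand, shown with its seed (bases 2 to 8) in capitals because the seed is the part of a microRNA that selects targets:
hsa-miR-31-5p: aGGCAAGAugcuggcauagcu

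HOPX lies on chromosome 4 (56647998 to 56681706) and VWF on chromosome 12 (5948877 to 6124670) in GRCh38.p14. RefSeq lists 6 curated transcripts for HOPX and 1 for VWF. Of the 2 genes, HOPX had entries in the RefSeq promoter table and VWF did not. Its 2 windows, each from 250 bases before to 50 bases after an annotated start on the minus strand, lie at chr4:56681247-56681546 and chr4:56656468-56656767, with starts 24779 bases apart. They are shown, with the transcribed 50 bases in capitals, because HOPX transcripts can begin at either start and which start the array probes read was not checked:
HOPX window 1: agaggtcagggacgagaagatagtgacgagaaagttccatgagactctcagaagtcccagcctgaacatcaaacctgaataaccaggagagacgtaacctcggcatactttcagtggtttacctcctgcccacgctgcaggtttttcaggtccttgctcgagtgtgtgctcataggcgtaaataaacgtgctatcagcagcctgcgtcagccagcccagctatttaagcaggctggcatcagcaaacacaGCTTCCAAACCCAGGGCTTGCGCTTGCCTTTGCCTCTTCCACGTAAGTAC
HOPX window 2: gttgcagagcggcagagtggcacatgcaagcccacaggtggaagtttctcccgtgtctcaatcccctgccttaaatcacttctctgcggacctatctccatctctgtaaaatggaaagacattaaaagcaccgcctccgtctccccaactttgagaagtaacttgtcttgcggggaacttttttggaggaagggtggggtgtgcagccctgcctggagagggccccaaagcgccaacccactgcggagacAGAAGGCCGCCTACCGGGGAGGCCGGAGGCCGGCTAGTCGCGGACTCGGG

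Between 34.6% and 40.7% of the 47231 probes were detected on an array, at a detection p under 0.05, and the median signal before normalization ranged from 74.6 to 92.5. The miR-31 level itself could not be read. The array has 1 MIR31 probe, which was not detected on any array (detection p from 0.468 to 0.696). Which RNA this probe binds was not checked, so it says nothing about the transfected microRNA. The luminal identity of LNCaP was visible, since 11 of 12 luminal prostate markers on the array were detected on all 4 arrays, KLK3 (prostate-specific antigen) among them.

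HOPX was read by 3 probes that behaved differently. ILMN_2316236, annotated to transcript NM_139212, was detected on all 4 arrays. Its signal before normalization was 294.9 on miR-NC replicate 1 and 163.0 on miR-NC replicate 2, whereas the miR-31 arrays gave 737.1 for replicate 1 and 868.1 for replicate 2. Both miR-31 arrays were brighter than both miR-NC arrays, and the groups did not overlap, which was so for 55% of tested genes. Without any processing, the miR-31 signal was 2.50 times the miR-NC signal in replicate 1 and 5.33 times in replicate 2.

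After background correction and quantile normalization, the HOPX log2 signal was 7.55 and 6.80 on the miR-NC arrays and 9.82 and 9.63 on the miR-31 arrays. The mean was 7.17 ± 0.53 (SD, n = 2) for the controls and 9.72 ± 0.13 (SD, n = 2) after miR-31. The log2 difference was 2.55 ± 0.26 (SE of the limma fit), a 5.85-fold higher signal in miR-31, and ranked 5 of 10754 tested genes when these were ordered from the largest rise. The 4 differences between single miR-31 and single miR-NC arrays ranged from 2.08 to 3.02. The authors' normalized intensities for the same probe read 167.8 and 96.4 for miR-NC and 798.3 and 706.3 for miR-31.

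The spread of HOPX sat in the control arrays. The miR-NC arrays differed by 0.75 on the log2 scale, more than 93.3% of tested probes did, whereas the miR-31 arrays differed by 0.19, more than 41.6% of tested probes did. The miR-NC signal before normalization was 1.81 times as high on replicate 1 as on replicate 2. The difference moved with the control array used: it was 7.27-fold without miR-NC replicate 1 and 4.55-fold without miR-NC replicate 2, where its rank among rises was 2 and 57. The rank was 21 without miR-31 replicate 1, 2 without miR-31 replicate 2 and 11 with the authors' values.

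The other HOPX probes were at or near background. ILMN_1735570, annotated to NM_032495, gave 86.5 and 75.8 on the miR-NC arrays and 94.3 and 109.0 on the miR-31 arrays, and its detection p was under 0.05 only on miR-31 replicate 2. Its miR-31 arrays were the brighter ones, but neither miR-NC array gave a signal above background, so no fold is given. ILMN_1766643, annotated to NM_139211, gave 76.3 and 58.0 for miR-NC and 59.7 and 63.1 for miR-31, was not detected on any array, and overlapped between groups. With 1 and 0 detected arrays, these probes did not meet the requirement of detection on at least 2 arrays and were not tested. The probe sequences were not used here, so where each probe lies on the HOPX transcripts cannot be stated, and dim probes do not show that a transcript is absent.

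VWF was read by 1 probe, ILMN_1752755, annotated to NM_000552, which was detected on all 4 arrays. Its signal before normalization was 1070.4 on miR-NC replicate 1 and 852.3 on miR-NC replicate 2, against 204.4 and 215.3 on the miR-31 arrays. Both miR-NC arrays were brighter than both miR-31 arrays, a lack of overlap seen in 55% of tested genes. The unprocessed miR-NC signal was 5.24 times the miR-31 signal in replicate 1 and 3.96 times in replicate 2.

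After normalization, the VWF log2 signal was 9.59 and 9.78 on the miR-NC arrays and 7.69 and 7.27 on the miR-31 arrays. The means were 9.68 ± 0.13 (SD, n = 2) and 7.48 ± 0.29 (SD, n = 2), a log2 difference of −2.20 ± 0.21 (SE) and a 4.61-fold lower signal in miR-31. This was rank 10 of 10754 genes from the largest fall, and the rank became 23 with the authors' values, 18 when miR-NC replicate 2 was left out and 22 when miR-31 replicate 2 was. Differences between single arrays ranged from −2.50 to −1.91. The miR-NC arrays differed by 0.18, more than 42.2% of tested probes did, and the miR-31 arrays by 0.41, more than 75.0% did. The authors' normalized intensities read 688.5 and 774.5 for miR-NC and 185.6 and 138.9 for miR-31. A pseudogene copy of part of VWF, VWFP1, lies on chromosome 22 (16690097 to 16704461), and whether the probe also reads it is uncertain.

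**Figure D1:**
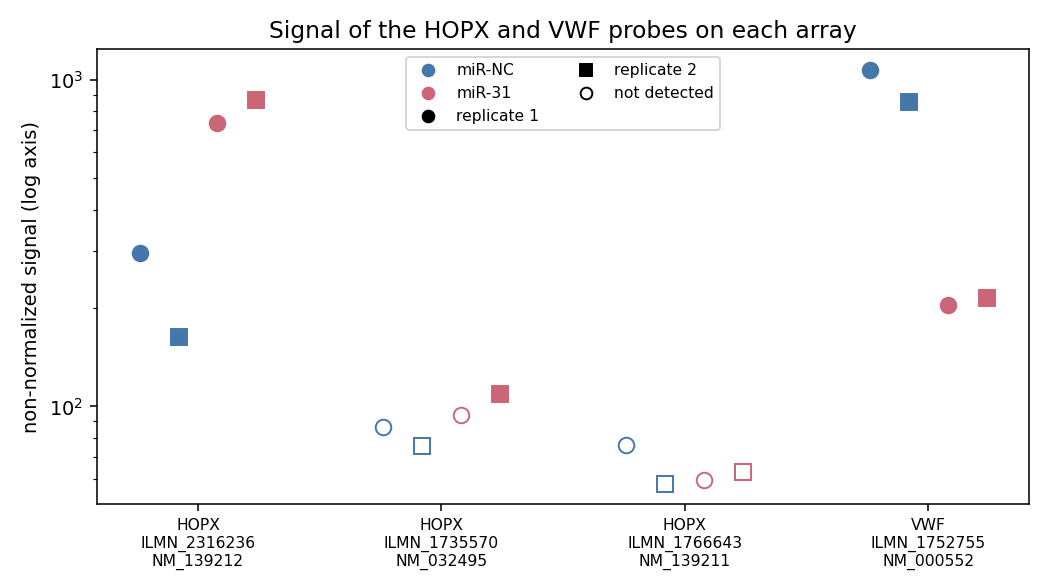
Signal before normalization (vertical log axis) of each HOPX and VWF probe on each array; circles are replicate 1, squares replicate 2, and open symbols were not detected. HOPX ILMN_2316236 stands at 294.9 and 163.0 on miR-NC and at 737.1 and 868.1 on miR-31 arrays, VWF at 1070.4 and 852.3 on miR-NC and at 204.4 and 215.3 on miR-31 arrays, and the other HOPX probes stay at or below 109.0.

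Among all tested genes the median log2 difference was −0.02. By limma's moderated test with Benjamini-Hochberg adjustment, 7.66% of the 10754 genes passed an adjusted p of 0.05, 2.43% higher and 5.24% lower in miR-31, and the 2 groups of arrays did not overlap in 55% of genes. HOPX and VWF entered with this contrast known, so nothing is read from their place in the distribution.

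**Figure D2:**
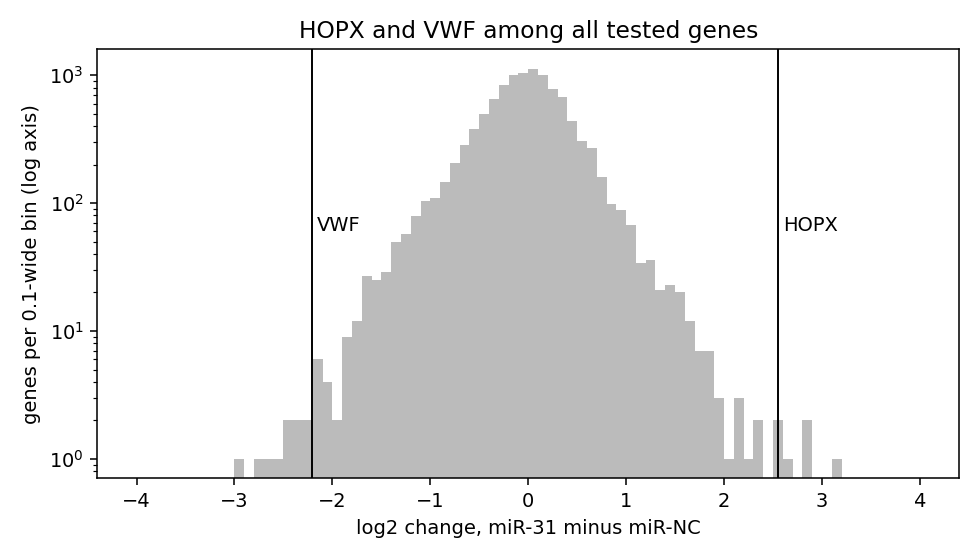
Number of genes (vertical log axis) by log2 difference between miR-31 and miR-NC for 10754 tested genes, in bins 0.1 wide. Vertical lines mark HOPX at 2.55 and VWF at −2.20, in the sparse ends of the distribution.

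The genes whose pattern was most like that of HOPX were mostly interferon-stimulated genes. Likeness was the Euclidean distance between log2 values over the 4 arrays, each gene centred on its own mean. It carries no test, since all genes share the same arrays and HOPX and VWF were picked for large changes. Values were not scaled, so only genes with a change of similar size and direction can lie near HOPX or VWF. The median distance over all genes mostly restates the size of the change of HOPX or VWF itself. IFIT3, an interferon-induced protein with tetratricopeptide repeats, was nearest at a distance of 0.22, where the median over 10753 genes was 2.64. Its log2 signals were 5.84 and 5.13 (miR-NC) and 7.95 and 8.07 (miR-31). The 5.13 lies below 5.46, the lowest detected signal of that array, so the distance rests partly on a value not above background.

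IFIT1, which binds foreign RNA 5′ ends, followed at 0.40, OASL, an antiviral relative of the oligoadenylate synthetases, at 0.68, and IFI27, an interferon-induced mitochondrial protein, at 0.72. OASL and IFI27 were detected only on the 2 miR-31 arrays, so their control values lie at background. IFIT3 was detected on miR-NC replicate 1 and on both miR-31 arrays, but not on miR-NC replicate 2. The gene at rank 5, S100P, a calcium-binding protein, stood at 0.78, with log2 signals of 10.04 and 9.45 (miR-NC) and 11.68 and 11.37 (miR-31).

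Letters of the promoter windows were set beside this pattern. The interferon-stimulated response element, searched on both strands as 2 GAAA units with any 2 bases between them, occurs in 3.57% of 35116 RefSeq windows. It was found in both windows listed for IFIT3, both for IFI27 and the 1 for IFIT1, in neither HOPX window and not in that of S100P. The IFI27 windows overlap and hold the same elements, so they are not separate finds. OASL had no entry. A match from each of the 3 genes with matches is shown, with the element in capitals, for comparison with the HOPX windows above. They lie at chr10:89327831-89327860, chr10:89392497-89392526 and chr14:94110618-94110647, all on the plus strand:
IFIT3: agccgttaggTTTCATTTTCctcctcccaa
IFIT1: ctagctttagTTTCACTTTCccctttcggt
IFI27: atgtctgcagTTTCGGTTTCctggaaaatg

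The HOPX windows also held no gamma-activated sequence (TTCNNNGAA, found in 7.66% of windows), no TATAAA (11.5%), no CCAAT (34.6%), no GGGCGG (45.0%), no E2F site (TTTGGCGC or TTTCGCGC, 1.15%) and no CArG box, the site read by SRF (1.29%), on either strand. No match means only that these letters are not in these windows.

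VWF had neighbours of a different kind. PEX5, the receptor that imports peroxisomal matrix proteins, was nearest at a distance of 0.21, where the median over 10753 genes was 2.24. Its log2 signals were 11.21 and 11.29 (miR-NC) and 9.21 and 9.05 (miR-31). CDC45, a cofactor of the replicative helicase, stood at 0.27, and E2F2, a transcription factor of S-phase genes, at 0.28. PCBD1, an enzyme of tetrahydrobiopterin recycling, stood at 0.34, and GSTA1, a glutathione transferase, at 0.36. All 5 were detected on every array. PEX5 lies on the same chromosome as VWF, at 7188653 to 7218574 of chromosome 12.

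**Figure D3:**
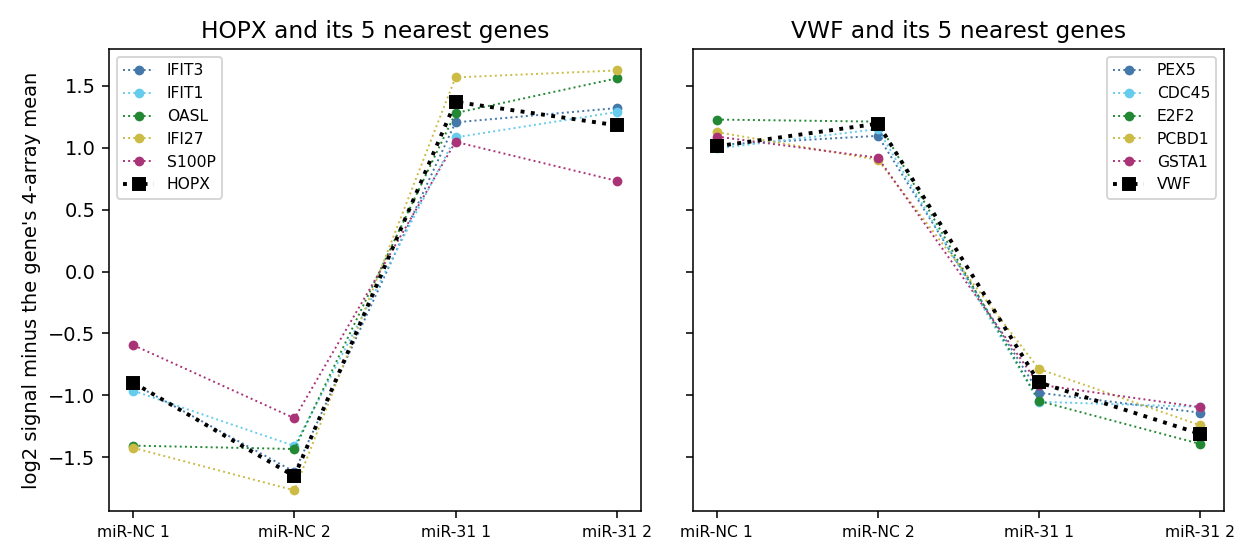
Log2 signal minus each gene's 4-array mean (vertical) on each array (horizontal) for HOPX and VWF (black squares) and the 5 nearest genes of each; dotted lines only join the points of a gene. IFIT3 lies at a distance of 0.22 from HOPX and PEX5 at 0.21 from VWF.

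Endothelial and platelet genes, with which VWF is normally expressed, were mostly not detected. The requirement of detection on at least 2 arrays was met by 6 of 30 endothelial and 5 of 14 platelet markers. Over all genes on the array it was met by 10754 of 20046. Of 30 endothelial markers on the array, 21 were not detected on any array and 3 were detected on all 4. The defining markers PECAM1, CDH5, TIE1, KDR and CLDN5 were not detected on any array. TEK, the angiopoietin receptor, was detected on both miR-NC arrays and on neither miR-31 array, near the detection limit. With its miR-31 values raised to the lowest detected signal of each array, it was 1.02-fold lower in miR-31. Its fitted log2 difference was −0.35 ± 0.28 (SE; limma adjusted p = 0.518), so a fall is not shown. Between 6 and 7 endothelial markers were detected on a miR-NC array and 5 on each miR-31 array. The summed normalized signal of all 30 markers was 1883 to 2001 in miR-NC and 2069 to 2291 in miR-31. This sum includes the background signal of the 21 markers not detected on any array, so it does not measure endothelial RNA.

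None of the 6 tested endothelial markers passed limma's threshold (0 at an unadjusted p under 0.05), and their median log2 difference was 0.14. ANGPT2, an angiopoietin that is stored in Weibel-Palade bodies, had log2 signals of 9.55 and 9.42 (miR-NC) and 9.77 on both miR-31 arrays. The difference was 0.29 ± 0.16 (SE; adjusted p = 0.334), and 0.44 ± 0.20 at a second ANGPT2 probe (adjusted p = 0.235). NOS3, endothelial nitric oxide synthase, had a difference of 0.39 ± 0.24 (adjusted p = 0.373). In bulk cells, fewer cells of a type and less RNA per cell cannot be told apart.

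Of 14 megakaryocyte and platelet markers on the array, 8 were not detected on any array, among them ITGA2B and PF4. None of the 5 tested passed in limma (0 at an unadjusted p under 0.05; median 0.23). GP1BA, the platelet receptor for VWF, was detected on all 4 arrays with a difference of −0.13 ± 0.26 (adjusted p = 0.826), and PPBP, a platelet chemokine, had 0.50 ± 0.28 (adjusted p = 0.339).

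Partners and clearance factors of VWF did not pass either (0 of 8 tested in limma, 1 at an unadjusted p under 0.05; median −0.14). F8, coagulation factor VIII, had a difference of −0.22 ± 0.24 (adjusted p = 0.657), and THBS1, a matrix protein that acts on VWF multimers, had −0.76 ± 0.28 (adjusted p = 0.152). Among other proteins with von Willebrand factor domains, 0 of 16 tested passed in limma (1 at an unadjusted p under 0.05; median 0.03). The anthrax toxin receptors ANTXR1 and ANTXR2 had differences of −0.79 ± 0.28 (adjusted p = 0.139) and −0.63 ± 0.36 (adjusted p = 0.344). Other ANTXR1 probes stood nearer to no change, at −0.45 (limma adjusted p = 0.373) and −0.07 (adjusted p = 0.924).

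The machinery that packs and releases VWF was largely detected, and about as many of its genes passed the test as of all genes. Of 59 such genes on the array 47 were tested, beside 10754 of 20046 over all genes. Of the 47, 2 were higher, 2 lower and 43 did not pass, or 8.51% called beside 7.66% of all genes, with a median of 0.08. AP1M1, a subunit of the AP-1 adaptor needed to form Weibel-Palade bodies, fell 2.38-fold, from log2 signals of 9.32 and 9.49 in miR-NC to 8.23 and 8.08 in miR-31 (limma adjusted p = 0.00757). MYRIP, which links RAB27A on these granules to actin, fell 1.85-fold (−0.89 ± 0.21; adjusted p = 0.0399), and its second probe stood at −1.08 (adjusted p = 0.0518).

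STX3, a syntaxin of granule fusion, rose 1.84-fold, from 11.23 and 10.89 to 11.92 and 11.96 (limma adjusted p = 0.0126). ZYX, a focal adhesion protein, rose 1.66-fold (0.73 ± 0.17; adjusted p = 0.0372); another ZYX probe passed at 1.15 ± 0.19. ATP6V0D1, a proton pump subunit, and STXBP2, a syntaxin-binding protein, had larger spreads between the miR-NC arrays (7.74 and 9.42 for ATP6V0D1, 7.93 and 9.11 for STXBP2) and did not pass (differences of 1.52 ± 0.44 and 0.92 ± 0.34, adjusted p = 0.0761 and 0.150).

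Among described regulators of VWF transcription, 1 of 23 tested was higher, 2 were lower and 20 did not pass (13.04% called beside 7.66% of all genes, median −0.01). The 2 lower genes were NFYC and SRF, and SRF is counted again among the HOPX partners below. NFYC, a subunit of the CCAAT-binding factor NF-Y, fell 2.79-fold, from 9.69 and 9.86 in miR-NC to 8.14 and 8.46 in miR-31 (limma adjusted p = 0.00450). Another NF-Y subunit, NFYA, had a difference of 0.64 ± 0.23 (adjusted p = 0.144). NFIL3, a bZIP repressor, rose 1.84-fold (0.88 ± 0.17; adjusted p = 0.0210), and NFIC, of the NF1 family, had −0.80 ± 0.21 (adjusted p = 0.0526). ERG, an ETS factor of endothelium, was detected only on miR-NC replicate 2.

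SRF, the factor that HOPX restrains in heart cells, fell 1.67-fold. Its log2 signal was 9.97 on both miR-NC arrays and 9.36 and 9.10 on the miR-31 arrays (−0.74 ± 0.17; limma adjusted p = 0.0380). It was the 1 of 12 tested HOPX partners that passed, with 11 not past the threshold (8.33% called, median −0.01). HDAC2 had a difference of −0.52 ± 0.14 (adjusted p = 0.0704), and the chaperone HSPA4 0.43 ± 0.17 (adjusted p = 0.186). Another HSPA4 probe stood at 0.48 (limma adjusted p = 0.230).

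SRF target genes had 1 higher, 0 lower and 26 not past the threshold among 27 tested (3.70% called, median 0.05, 4 at an unadjusted p under 0.05). The 1 that rose was ZYX, given above. CSRP1, a cytoskeletal LIM protein, had −0.72 ± 0.19 (adjusted p = 0.0551). TAGLN2, an actin-binding protein, had 1.60 ± 0.72 (adjusted p = 0.232), with miR-NC arrays at 6.31 and 9.10. Another TAGLN2 probe stood at 0.80 ± 0.60 (limma adjusted p = 0.484).

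Other homeobox genes were mostly not detected or not past the threshold. Of 161 other homeobox genes on the array, 91 were not detected on any array and 58 were tested, beside 10754 of 20046 over all genes. Of the 58, 1 was higher, 1 lower and 56 did not pass (3.45% called, median −0.11). PBX3, a cofactor of HOX proteins, rose 1.88-fold, from 8.64 and 8.66 in miR-NC to 9.50 and 9.63 in miR-31 (limma adjusted p = 0.0175). ZHX2, a zinc-finger and homeobox repressor, fell 1.84-fold (−0.88 ± 0.21; adjusted p = 0.0440), with a second probe at −0.70 (adjusted p = 0.0748). ZHX3 and NKX3-2, a developmental homeobox factor, had −0.69 ± 0.27 and −0.67 ± 0.33 (adjusted p = 0.179 and 0.282).

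Genes that mark cells where HOPX is known did not pass the test. Of 10 reserve intestinal stem cell markers on the array 4 were tested, and none passed in limma (1 at an unadjusted p under 0.05; median −0.16). BMI1, a Polycomb subunit, had −0.15 ± 0.16. LRIG1, an inhibitor of ERBB receptors, had log2 signals of 10.37 and 9.97 (miR-NC) and 10.19 and 10.16 (miR-31). Its second probe stood at −0.25 (adjusted p = 0.448). Of 12 alveolar type 1 markers on the array 3 were tested, and none passed (1 at an unadjusted p under 0.05; median 0.01). VEGFA had 0.61 ± 0.22 (adjusted p = 0.144), and its second probe 0.91 ± 0.25 (adjusted p = 0.0693).

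Markers of other cells that a prostate sample could hold were sparse. Over all genes on the array 10754 of 20046 were tested. Basal epithelial markers had 2 tested members of 9 on the array, and fibroblast and smooth muscle markers 1 of 14. Leukocyte markers, a list that also holds the hemoglobin genes HBB and HBA1, had 2 of 11, and neuroendocrine markers 4 of 13. None of these passed in limma (1 neuroendocrine marker and 0 others at an unadjusted p under 0.05). The neuroendocrine enzyme DDC had −0.50 ± 0.14 (adjusted p = 0.0712) and ENO2 0.38 ± 0.22 (adjusted p = 0.343). ACTA2 had −0.20 ± 0.18 and HBB 0.21 ± 0.30. CD68, at its brighter probe, had log2 signals of 8.32 and 7.91 (miR-NC) and 8.16 and 8.07 (miR-31). The second CD68 probe stood at 0.40 (adjusted p = 0.393). The luminal serine protease TMPRSS2 fell 1.64-fold (−0.72 ± 0.14; adjusted p = 0.0191), the 1 of 11 tested luminal markers that passed. KLK2 and FOLH1 had −0.71 ± 0.24 and −0.32 ± 0.18, and another FOLH1 probe stood at −0.11 (limma adjusted p = 0.754).

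The genes next to each member on its chromosome were read as well. The 10 protein-coding genes on either side of HOPX held 10 tested genes, of which 0 were higher, 2 lower and 8 not past the threshold (20.0% called beside 7.66% of all genes, median 0.01). PAICS, an enzyme of purine synthesis, fell 1.92-fold, from 13.09 and 12.89 in miR-NC to 12.03 and 12.07 in miR-31 (limma adjusted p = 0.00558; second probe −0.89, adjusted p = 0.0122). NOA1, a mitochondrial GTPase, fell 1.49-fold (adjusted p = 0.0480). CEP135, a centriole protein, had −0.73 ± 0.25, and IGFBP7, a secreted IGF-binding protein, 0.25 ± 0.31.

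Around VWF, 4 of 12 tested genes were lower and 0 higher (33.3% called beside 7.66% of all genes, of which 5.24% were lower; median −0.24, or −0.10 with 1 gene not detected in miR-31 taken at its bound). SCNN1A, an epithelial sodium channel subunit, fell 2.16-fold, from log2 signals of 11.10 and 10.98 in miR-NC to 9.84 and 10.02 in miR-31 (limma adjusted p = 0.00548), NCAPD2, a condensin subunit, fell 2.04-fold (adjusted p = 0.0199), and NDUFA9, of respiratory complex I, fell 1.56-fold (adjusted p = 0.0485). The other 8 did not pass, among them CD9, a tetraspanin, at −0.52 ± 0.15 with a second probe at 0.46, and DYRK4, a kinase, at 0.44 ± 0.16. Counts this small, on lists chosen with earlier results known, are a description.

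**Figure D4:**
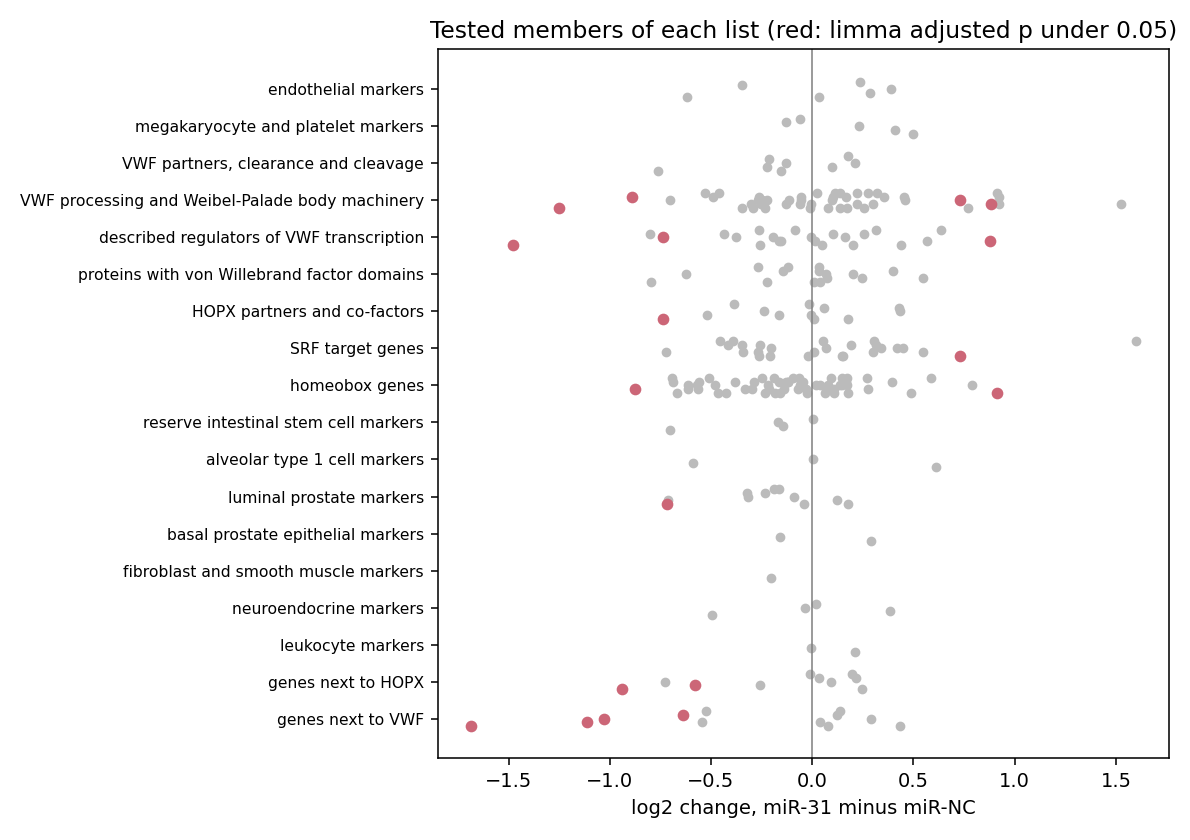
Log2 difference between miR-31 and miR-NC (horizontal) for each tested gene of each list (rows); red points passed a limma adjusted p of 0.05. The lists centre near 0, and the 16 genes that passed include 4 lower genes beside VWF.

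Over all lists 242 genes were tested and 16 passed, or 6.61% beside 7.66% of all genes. With 1 array left out, 1 group holds a single array, so only the direction of the 16 is read from those fits. With arrays aligned on their medians 0 of the 16 passed (10 of the 242 at an unadjusted p under 0.05), and without an intensity trend 4 did. All 16 kept their direction under each of these settings.

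The differences of HOPX and VWF kept their sign under every setting tried. HOPX ranged from 2.17 to 2.86 at its detected probe after normalization, and VWF from −2.41 to −1.91. With no background correction and no normalization HOPX stood at 1.87, a 3.65-fold higher signal, and VWF at −2.19.

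**Figure D5:**
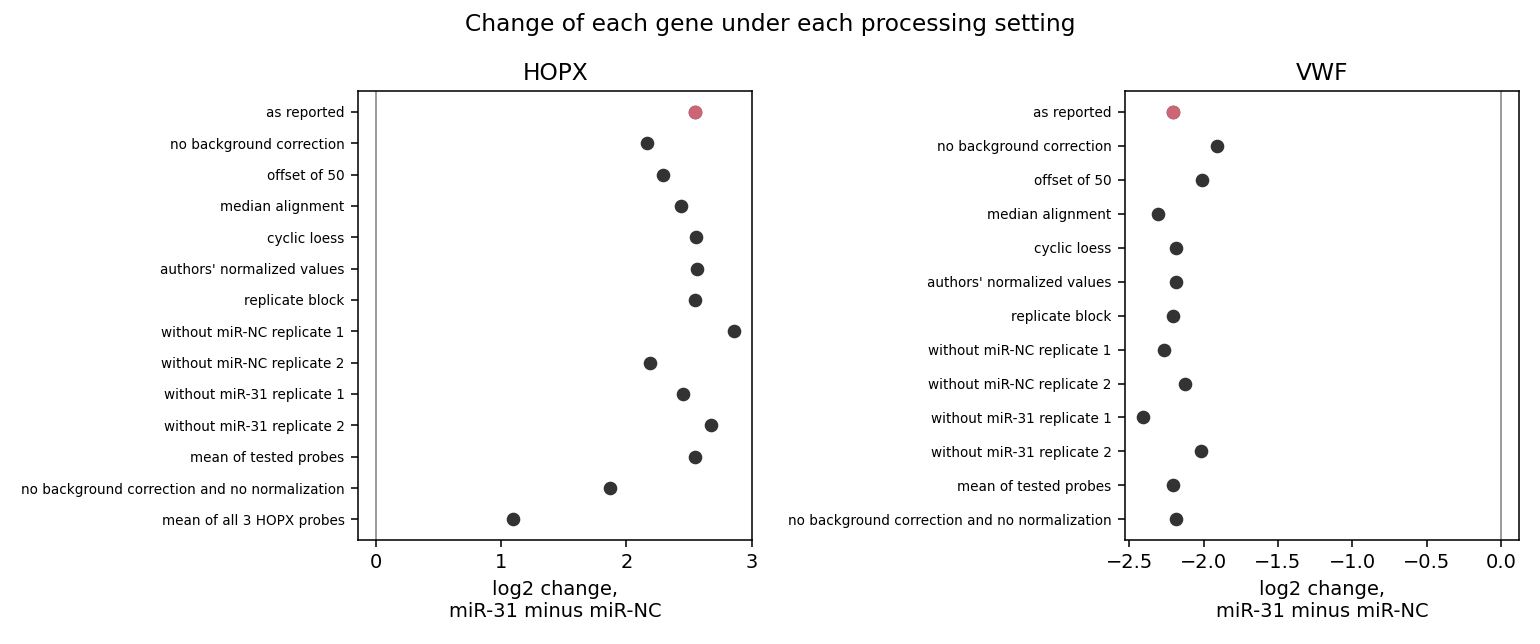
Log2 difference between miR-31 and miR-NC (horizontal) of HOPX and VWF under each processing setting (rows), with the reported value in red. HOPX at its detected probe stays between 1.87 and 2.86 and VWF between −2.41 and −1.91; the lowest HOPX point, 1.09, averages in 2 probes at background.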

How the data were processed

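Per the file headers, the deposited table holds non-normalized signal intensity for 47231 probes on 4 arrays, with a detection score for each. The authors' score runs from 0 for the dimmest to 1 for the brightest probes, so detection p was taken as 1 minus it. The submitters' processing notes name BeadStudio, without a version or a background setting. A second deposited table holds the authors' normalized intensity, linear and with a shared median of 14.3, whose method is not given in the sources used here; it served as an alternative, raised to a floor of 16 before log2.

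With limma 3.58.1 in R 4.3.3, background was estimated from detection p (neqc, offset 16), followed by quantile normalization and log2. Probes detected (p under 0.05) on at least 2 of 4 arrays were tested (18354 probes, 38.9%) by lmFit and eBayes with an intensity trend, two-sided, Benjamini-Hochberg over all tested probes, threshold 0.05. The fit had 2 residual degrees of freedom plus 7.19 from the prior. With 2 arrays a group, no exact permutation test can reach that threshold. The number of arrays limits the precision. A gene was read at its brightest tested probe, with symbols updated by Entrez identifier (30074 probes matched).

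Named genes were HOPX and VWF; in each of 18 lists up to 4 members past the threshold with the smallest p and up to 2 others detected on all 4 arrays with the largest difference; the 5 genes nearest to each member; and defining cell markers. ERG, ITGA2B, PF4, KLK3 and VWFP1 were named outside this rule. 1 gene that the rule names is not reported here. The members, lists and motifs were chosen with earlier results of these data known. The limma code was tested on simulated data. Alternatives were other background, offset, normalization, filter, trend and threshold settings, the authors' values, the replicate number as a block, and each array left out; the mean over all 3 HOPX probes and unprocessed intensities were added after the data were seen.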

Additional observations from a re-analysis of the deposited data

How the results depend on the processing

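HOPX and VWF kept their direction under every setting run. Without any processing HOPX stood at 1.87 and as the mean of all 3 of its probes at 1.09 (a value that averages in 2 probes at background and is no measure of change), and VWF stood at −1.91 with no background correction. Leaving out 1 array at a time gave 2.19 to 2.86 for HOPX and −2.41 to −2.02 for VWF. The mean of tested probes equalled the reported value, since each gene had 1 tested probe. The count of 1132 probes past the limma threshold became 106 with median alignment (57.5% higher, against 34.0% as reported), 2536 with the replicate block (47.6% higher), 359 without an intensity trend (20.1% higher) and 2033 at a threshold of 0.1, and ranged from 0 to 2057 with 1 array left out (3033 and 2748 at an unadjusted p under 0.05 where it was 0). The count of 16 listed genes became 0 with median alignment, 10 with the authors' values, 28 with the replicate block and 4 without a trend, and ranged from 0 to 22 with 1 array left out. The cause of these shifts was not tested. With 1 array left out, 1 group holds a single array, so neither count is read there. Same-numbered arrays deviated together with a correlation of 0.22, but with 2 pairs and no label that says what a number shares, the numbers were not taken as pairs; the replicate block left the values of HOPX and VWF at 2.55 and −2.20. Of named genes near 0 that did not pass, LRIG1 turned negative with median alignment (−0.10), cyclic loess (−0.0037) and the authors' values (−0.0028), and CD68 turned positive with cyclic loess (0.0056). With 1 array left out LRIG1 ranged from −0.20 to 0.21, CD68 from −0.21 to 0.20, HBB from −0.088 to 0.43 and IGFBP7 from −0.055 to 0.52. Signal over background limits the dimmer HOPX probes, for which no change can be read.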
